A study of Mus musculus with 10 samples.

Results

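Noncoding RNA genes are the genes of the deposited table for which every listed transcript carries a RefSeq noncoding identifier (NR_), with the transcripts of a gene summed. They number 200 of the 6610 genes in the table, and by the start of their names 136 were set apart as small RNA genes and 64 as long ones. The RefSeq annotation of GRCm38.p6 classes 132 of the 200 as microRNA hairpins and 45 as long noncoding RNA genes. It classes 11 as transcribed pseudogenes and 6 as protein-coding genes that the table lists by a noncoding transcript alone, so the name of the set is not exact for these 17 genes. The rest are 2 antisense RNA genes (Tsix and Gnasas1), telomerase RNA (Terc), the RNA subunit of RNase MRP (Rmrp), an RNase P RNA gene (Rprl3) and 1 gene that RefSeq does not hold under its symbol or identifier. Mir100hg, Mirc35hg, Mirg and Mirt2 fell among the small RNA genes by the start of their names, although RefSeq classes them as long. No gene named as a small nucleolar, spliceosomal, 7SK or 7SL RNA is a member.

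RNA was sequenced from B lymphocytes of the spleen of C57BL/6 mice, an inbred laboratory strain, in 5 groups of 2 libraries each. The group div12_48_d holds cells that divided in a pulse culture and then divided again during a second culture of 48 h (Phase II) with anti-CD40 antibody at 0.12 µg/ml, and div12_48_u holds cells of that same culture that did not divide again. The group div12 holds their Phase I parents, which received a pulse of antibodies to IgM, the antigen receptor, and to CD40, a co-stimulatory receptor, and had divided by 48 h, while div0 holds cells of the same pulse that had not divided. Resting cells with no activation form the group naive. The 2 replicates of each Phase I group are described as independent pools of 4 to 5 mice, and no such statement was found for Phase II, whose RNA came from fewer cells, so phase, culture time and cell input cannot be told apart. In such bulk samples fewer cells of a type and less RNA per cell cannot be told apart. Values are TPM, a level per transcript length whose sum is equal in every library, from rRNA-depleted total RNA.

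A microRNA is cut from a hairpin within a longer primary transcript by Drosha and then Dicer, and the mature strand, loaded into an Argonaute protein, finds its targets mainly through the seed, bases 2 to 8 from its 5′ end. Long noncoding RNAs act as RNA: Malat1 marks nuclear speckles, Neat1 builds paraspeckles, and Xist coats the inactive X chromosome. Small nucleolar RNA host genes (the Snhg genes) are spliced transcripts whose introns carry the small RNAs that guide modification of ribosomal RNA, while their exons are generally turned over rapidly.

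The hairpins with the highest level or the largest differences below are shown by their mature sequences, from RefSeq (GRCm38.p6), with the seed in capitals. The first set holds the hairpins at the highest level, and Mir1896 has a single annotated mature strand.
miR-3064-5p: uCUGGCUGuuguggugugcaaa
miR-3064-3p: uGCCACACugcaacaccuuaca
miR-142a-5p: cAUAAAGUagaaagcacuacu
miR-142a-3p: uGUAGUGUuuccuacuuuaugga
miR-1896: cUCUCUGAuggugggugaggag
miR-425-5p: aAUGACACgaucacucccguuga
miR-425-3p: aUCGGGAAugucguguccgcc
miR-22-5p: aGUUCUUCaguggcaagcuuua
miR-22-3p: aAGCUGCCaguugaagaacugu
The second set holds microRNAs whose hairpins were highest in naive cells, or are members of the clusters of Mir17hg and of Mir132 and Mir212.
miR-27a-3p: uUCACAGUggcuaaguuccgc
miR-24-3p: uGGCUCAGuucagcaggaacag
miR-466i-3p: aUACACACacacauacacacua
miR-132-3p: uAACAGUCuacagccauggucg
miR-212-3p: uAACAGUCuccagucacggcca
miR-18a-5p: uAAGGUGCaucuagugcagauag
miR-92a-3p: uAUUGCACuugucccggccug
Among the sequences shown, miR-132-3p and miR-212-3p share a seed, AACAGUC, and no other pair does. Reads of 50 bases are longer than a mature microRNA of 21 to 24 bases, so a hairpin's value was not read as a mature level, and reads of a primary or host transcript that covers the hairpin cannot be told from those of the hairpin. The Mir3064 hairpin, 67 bases long, lies at chr11:106782693-106782759 on the minus strand, and that of Mir425, 85 bases long, at chr9:108568777-108568861 on the plus strand (GRCm38.p6). In both, capitals mark the mature strands.
Mir3064 hairpin: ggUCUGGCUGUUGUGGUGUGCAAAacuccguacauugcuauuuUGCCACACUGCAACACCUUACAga
Mir425 hairpin: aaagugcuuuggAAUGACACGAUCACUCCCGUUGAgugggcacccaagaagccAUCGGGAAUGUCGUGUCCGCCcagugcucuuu

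Of the 200 genes, 85 had a value above 0 in at least 1 library, 38 small and 47 long, and 115 were listed at 0 in every library, 98 small and 17 long, H19 among them. Among hairpins the lowest value above 0 in a library lay between 2.77 and 6.10 TPM, so a short hairpin goes from 0 to several TPM in 1 step. Mir155 and Mir150, microRNAs known for their roles in B cells, stood at that level: Mir155 was above 0 in 1 library (5.72 TPM, div0) and Mir150 in 2 (5.23 TPM in div12_48_d and 3.91 TPM in div12). The filter on low values, at least 1 TPM in at least 2 libraries, was passed by 62 of the 200 genes, 27 small and 35 long. These were tested with limma on log2(TPM + 1) among 4427 genes, with Benjamini-Hochberg adjustment over all of them, and the words rose and fell are kept for an adjusted p under 0.05. Fold changes are log2 ± standard error on that scale, which understates the change of low genes.

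Together the noncoding genes took 0.705% and 0.655% of all listed TPM in the div12_48_d libraries, 0.817% and 0.742% in div12_48_u, 0.556% and 0.561% in div12, 0.631% and 0.679% in div0 and 1.11% and 0.910% in naive. The naive libraries were highest and the div12 libraries lowest, with no overlap with any other group. Long genes summed to 4947.6 ± 131 TPM in div12_48_d, 5245 ± 365 in div12_48_u, 4016 ± 19.3 in div12, 4338 ± 2.71 in div0 and 6214 ± 364 in naive (SD, n = 2 each). Small RNA genes summed to 1850.3 ± 224 TPM, 2551 ± 168, 1570.2 ± 56.9, 2211 ± 336 and 3877 ± 1036 TPM in the same order of groups, and Mir3064 alone made up most of each sum. The summed level of the pseudogenes, carried by Ndufa11b, Gm9057 and Gm6637, was 754 ± 10.7 TPM in div12_48_d, 655 ± 31.8 in div12_48_u, 833 ± 14.6 in div12, 694 ± 22.4 in div0 and 559 ± 21.9 in naive (SD, n = 2 each).

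**Figure D1:**
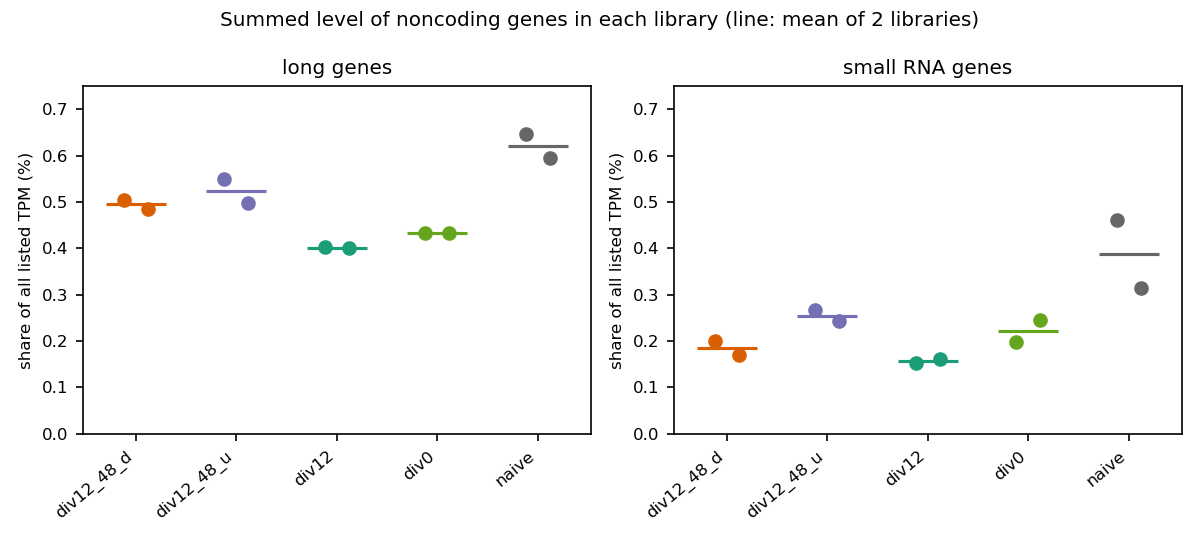
Share of all listed TPM, in percent, taken by the 64 long genes (left) and the 136 small RNA genes (right) in each library, by group, with a line at the mean of the 2 libraries. Long genes ranged from 0.400% in a div12 library to 0.647% in a naive library, and small RNA genes from 0.153% to 0.461% in libraries of the same groups.

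Against naive cells, 30 of the 62 tested noncoding genes (48.4%) differed in div0 and 34 (54.8%) in div12, while over all 4427 genes 54.9% were called in div0 and 66.9% in div12. In div0, 6 rose and 24 fell (15.4% and 39.6% of all genes did), and in div12, 10 rose and 24 fell (19.4% and 47.5% of all genes). The median log2 fold change of the tested noncoding genes was -0.29 in div0, beside -0.24 over all genes, and -0.46 in div12, beside -0.35 over all genes. The size of that general shift depends on the scaling. Median-ratio scaling brings the median change close to none by its construction, and the medians over all genes were then -0.03 and -0.04. The noncoding calls became 14 up and 16 down in div0 and 16 up and 16 down in div12. Over all genes that scaling gave 1130 up and 1165 down in div0 and 1388 up and 1457 down in div12. With quantile normalization the noncoding calls became 15 up and 13 down in div0 and 15 up and 14 down in div12. Over all genes it gave 1272 up and 1020 down in div0 and 1472 up and 1294 down in div12. By type, 10 of the 20 tested long genes that RefSeq classes as long noncoding fell in div0 with 0 rising, and in div12, 12 fell and 4 rose. In div0 the falls of Fendrr, Gt(ROSA)26Sor, Kcnq1ot1 and Snhg16 were lost under both scaling alternatives. In div12 those of D930028M14Rik, Fendrr, Gt(ROSA)26Sor, Lncbate10 and Snhg16 were lost under both. Median-ratio scaling also called Xist and Pvt1 higher than naive in div0 and in div12. The counts above include Mir24-2 and Mir212, which passed the filter only through naive, and Mir664, which passed only through div12, so the direction of these 3 against that group was set by the filter.

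Divided cells differed from undivided ones in fewer noncoding genes. Between div12 and div0, 6 of 62 were called (9.68%, beside 8.76% over all genes), 2 up and 4 down (3.68% and 5.08% of all genes). Between div12_48_d and div12_48_u, 5 were called (8.06%, beside 25.6%), 3 up and 2 down (12.2% and 13.4% of all genes). Against their Phase I parents, div12_48_u differed from div12 in 17 genes (27.4%, beside 41.3%), 11 up and 6 down (27.7% and 13.6% of all genes), and div12_48_d differed from div12 in 11 (17.7%, beside 15.9%), 8 up and 3 down (11.9% and 4.09% of all genes). With median-ratio scaling the split was 4 up and 4 down for div12 against div0 (331 and 188 over all genes). It was 3 up and 0 down for div12_48_d against div12_48_u (669 and 492 over all genes). For div12_48_u against div12 it was 10 up and 10 down (816 and 952 over all genes). Quantile normalization gave 3 up and 4 down, 3 up and 3 down, and 8 up and 10 down for the same comparisons. Over all genes it gave 200 up and 182 down, 593 up and 613 down, and 851 up and 856 down. For div12_48_d against div12 both scaling alternatives gave 7 up and 4 down. Over all genes that comparison had 442 up and 428 down with median-ratio scaling. With quantile normalization it had 382 up and 364 down. For the difference between the division effects of the phases, limma called 0 of 62 members and 0% of all 4427 genes, with 5 members at an unadjusted p under 0.05. The comparisons with a common group (naive or div12) share its libraries, so their calls are not independent. The counts of the 3 comparisons with div12 in this paragraph include Mir664, which passed the filter only through div12. Its direction there, higher in div12, was set by the filter.

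Malat1 and Neat1, neighbours on chromosome 19, were the long genes with the highest mean over the 10 libraries, and both were highest in resting cells. In div12, Snhg1 and Xist were above both. Malat1 (chr19:5795690-5802672) stood at 839 and 732 TPM in div12_48_d, 1115 and 1008 TPM in div12_48_u, 391 and 489 TPM in div12, 1078 and 932 TPM in div0 and 2053 and 1940.0 TPM in naive. Its 2 naive libraries were above all others, its 2 div12 libraries below all others, and the groups did not overlap except for div12_48_u with div0. It fell by 0.99 ± 0.13 in div0 against naive (adjusted p = 0.000432) and by 2.19 ± 0.13 in div12 against naive (adjusted p = 5.91e-06).

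In divided cells Malat1 was lower in both phases. It fell by 1.19 ± 0.13 in div12 against div0 (limma, adjusted p = 0.0109) and by 0.43 ± 0.13 in div12_48_d against div12_48_u (adjusted p = 0.0387). That second call kept its direction in each of 22 alternatives but was lost under 11 of them. Among these were median-ratio scaling, the compared groups fitted alone, and leaving out any 1 div12_48_d, div12_48_u or div0 library. The first was lost without either div0 library (adjusted p = 0.147 without replicate 1 and 0.0571 without replicate 2), over a range of 0.00755 to 0.147. Relative to their div12 parents, Malat1 rose by 1.27 ± 0.13 in div12_48_u (adjusted p = 0.000281) and by 0.84 ± 0.13 in div12_48_d (adjusted p = 0.00407). The difference between the division effects, Phase II minus Phase I, was 0.76 ± 0.18 and was not called (limma, adjusted p = 0.172).

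Neat1 (chr19:5824708-5845480) had 835 and 772 TPM in div12_48_d, 934 and 947 TPM in div12_48_u, 182 and 209 TPM in div12, 376 and 381 TPM in div0 and 1523 and 1024 TPM in naive. No group overlapped another, and the naive libraries differed most between themselves. It fell by 1.72 ± 0.16 in div0 and by 2.67 ± 0.16 in div12 against naive (adjusted p = 9.63e-05 and 6.26e-06), and by 0.95 ± 0.16 in div12 against div0 (adjusted p = 0.0198). The last call was lost when any 1 of the 4 libraries compared was left out, with adjusted p up to 0.171. Against div12, Neat1 rose by 2.26 ± 0.16 in div12_48_u and by 2.04 ± 0.16 in div12_48_d (adjusted p = 9.06e-05 and 0.000446). Between div12_48_d and div12_48_u its fold change was -0.23 ± 0.16 (adjusted p = 0.340), and the difference between the phases, 0.72 ± 0.23, was not called (adjusted p = 0.289). A list of 7 nuclear long noncoding genes had 3 tested members, these 2 and Kcnq1ot1: 3 of 3 fell in div0 and in div12 against naive, where 39.6% and 47.5% of all genes fell. In div12 against div0, 2 fell (5.08% of all genes), and in div12_48_d against div12_48_u, 1 fell (13.4%). Against div12, 3 rose in div12_48_u (27.7% of all genes) and 2 in div12_48_d (11.9%).

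**Figure D2:**
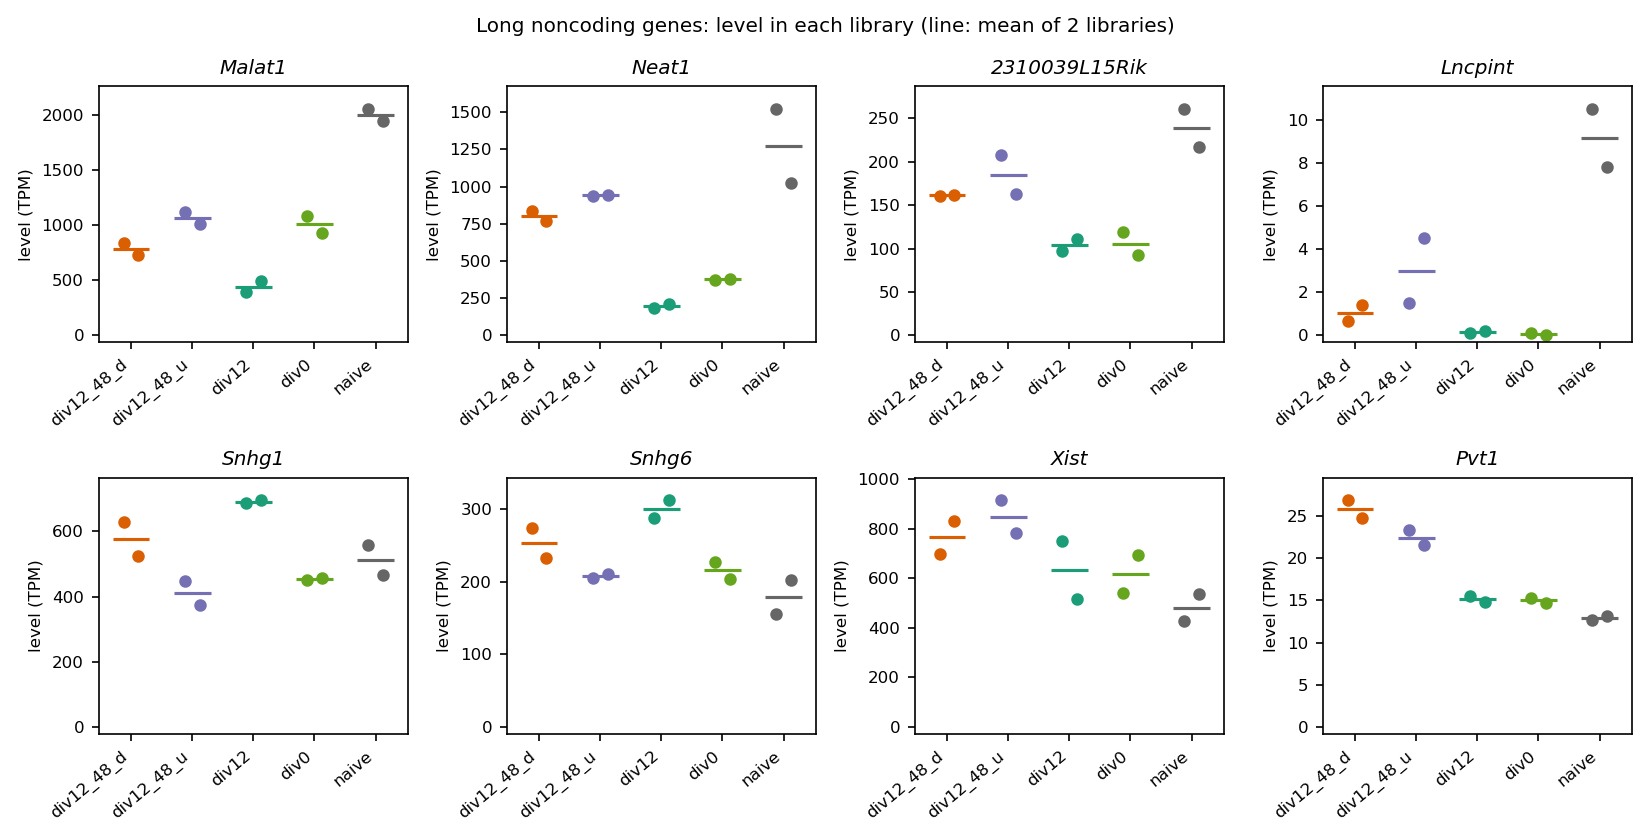
Level in TPM of 8 long noncoding genes in each of the 10 libraries, by group, with a line at the mean of the 2 libraries. Malat1 and Neat1 are lowest in div12 and highest in naive, Snhg1 is highest in div12, and Pvt1 is highest in div12_48_d (26.9 and 24.8 TPM).

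Other long genes were also highest in naive cells. The long noncoding gene 2310039L15Rik (chr10:95336276-95363216) had 161 and 161 TPM in div12_48_d, 207 and 162 TPM in div12_48_u, 97.0 and 111 TPM in div12, 119 and 92.5 TPM in div0 and 261 and 217 TPM in naive. It fell by 1.17 ± 0.16 in div0 and by 1.19 ± 0.16 in div12 against naive (adjusted p = 0.000598 and 0.000293), differed little between div12 and div0 (-0.02 ± 0.16), and rose by 0.82 ± 0.16 in div12_48_u and by 0.63 ± 0.16 in div12_48_d against div12 (adjusted p = 0.00474 and 0.0330). The last of these was lost under 8 of 22 alternatives, each of its 4 libraries left out among them (adjusted p up to 0.162). Myoparr, chosen after its values were seen and named for an RNA from the myogenin promoter region in mouse muscle, had 126 and 127 TPM in div12_48_d, 183 and 144 TPM in div12_48_u, 100.2 and 114 TPM in div12, 123 and 127 TPM in div0 and 221 and 188 TPM in naive. It fell by 0.70 ± 0.13 in div0 and by 0.93 ± 0.13 in div12 against naive (adjusted p = 0.00257 and 0.000356). Myoparr rose by 0.60 ± 0.13 in div12_48_u against div12 (adjusted p = 0.00724).

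Lncpint, a long noncoding gene known as a p53 target, was at or under 0.211 TPM in both Phase I groups of activated cells. It had 0.670 and 1.40 TPM in div12_48_d, 1.499 and 4.50 TPM in div12_48_u, 0.119 and 0.211 TPM in div12, 0.0929 and 0 TPM in div0 and 10.5 and 7.82 TPM in naive. Against naive it fell by 3.27 ± 0.36 in div0 (adjusted p = 0.000208). It fell by 3.11 ± 0.36 in div12 against naive (adjusted p = 0.000130) and rose by 1.67 ± 0.36 in div12_48_u against div12 (adjusted p = 0.00683). The 2 div12_48_u libraries lay above both div12_48_d libraries, and that difference, -0.89 ± 0.36 for div12_48_d against div12_48_u, was not called (adjusted p = 0.106). As a mean under 10 TPM, Lncpint falls outside the rule for named genes and was chosen after its values were seen.

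Kcnq1ot1, the imprinted antisense RNA of the Kcnq1 locus, had 7.69 and 8.07 TPM in div12_48_d, 13.3 and 9.77 TPM in div12_48_u, 7.83 and 7.77 TPM in div12, 9.45 and 8.46 TPM in div0 and 13.2 and 14.1 TPM in naive. It fell by 0.56 ± 0.16 in div0 and by 0.73 ± 0.16 in div12 against naive (adjusted p = 0.0200 and 0.00410). Kcnq1ot1 rose by 0.50 ± 0.16 in div12_48_u against div12 (adjusted p = 0.0405). Its fall in div0 was lost under median-ratio scaling and quantile normalization and without naive replicate 2 or either div0 library (adjusted p up to 0.415). Its fall in div12 was lost under quantile normalization, and its rise under 12 of 22 alternatives, among them without any 1 div0, div12 or div12_48_d library or div12_48_u replicate 1 (adjusted p up to 0.223). The pseudogenes Gm5915 and Gm14853 lie within the spans of the coding genes Ctcf (opposite strand) and Atrx (same strand), and the use of strand in counting is not given, so their reads cannot be told from those of these genes. Gm5915 had 9.70 and 9.12 TPM in div12 and 10.1 and 11.3 TPM in div0, against 20.1 and 17.8 TPM in naive, and fell by 0.77 ± 0.17 in div0 and by 0.94 ± 0.17 in div12 (adjusted p = 0.00627 and 0.00150). The div0 call of Gm5915 was lost under quantile normalization (0.0716). Gm14853 had 15.6 and 17.1 TPM in div12 and 20.7 and 16.7 TPM in div0, against 32.6 and 23.2 TPM in naive, and its falls of 0.71 ± 0.20 and 0.54 ± 0.20 (adjusted p = 0.0119 and 0.0467) were lost under both scaling alternatives and without naive replicate 1. The div12 call was also lost without div12 replicate 1 and the div0 call without any 1 div0, div12 or div12_48_d library.

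The genes whose level over the 10 libraries was most like that of Malat1 were Myoparr (Pearson r = 0.902 of log2(TPM + 1)), Mir3064 (r = 0.850) and Kcnq1ot1 (r = 0.842), and Neat1 came next (r = 0.824). The libraries fall into 5 groups and share their scaling, so these coefficients are a description.

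Of the 3 tested snoRNA host genes, Snhg1 and Snhg6 had their highest mean in div12, while Snhg16 had its highest in naive. Snhg1 (chr19:8723487-8726326), whose span holds 8 snoRNA genes in GENCODE, had 629 and 526 TPM in div12_48_d, 447 and 374 TPM in div12_48_u, 687 and 696 TPM in div12, 450.2 and 458 TPM in div0 and 557 and 466 TPM in naive. In both phases the libraries of divided cells lay above those of undivided cells. It rose by 0.61 ± 0.12 in div12 against div0 (adjusted p = 0.0299), by 0.49 ± 0.12 in div12_48_d against div12_48_u (adjusted p = 0.0233) and by 0.44 ± 0.12 in div12 against naive (adjusted p = 0.0132). Relative to div12 it fell by 0.76 ± 0.12 in div12_48_u (adjusted p = 0.00211), while in div12_48_d it differed by -0.27 ± 0.12 (adjusted p = 0.193).

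These division calls of Snhg1 rest on few libraries. The Phase I call was lost without any 1 of its 4 libraries (adjusted p from 0.0678 to 0.222), with no filter on low values (0.0523) and with no trend (0.0585), over a range from 0.0237. The Phase II call was lost without div12_48_d replicate 1 (0.163), without div12_48_u replicate 2 (0.128) and with the compared groups fitted alone (0.0808), over a range from 0.0155. Without 1 of its own libraries the Phase II rise lay between 0.36 and 0.62. The rise in div12 against naive was lost without naive replicate 2 or div12 replicate 2 (adjusted p up to 0.0859), and the difference between the division effects of the phases was -0.11 ± 0.18 (limma, adjusted p = 0.944).

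Snhg6, the host of Snord87, had 274 and 233 TPM in div12_48_d, 205 and 210.2 TPM in div12_48_u, 288 and 313 TPM in div12, 227 and 204 TPM in div0 and 155 and 202 TPM in naive. It rose by 0.75 ± 0.14 in div12 against naive (adjusted p = 0.00130) and fell by 0.53 ± 0.14 in div12_48_u against div12 (adjusted p = 0.0146). This fall was lost without div12 replicate 2 or either div12_48_u library (adjusted p up to 0.0835). Its division differences, 0.47 ± 0.14 in div12 against div0 and 0.28 ± 0.14 in div12_48_d against div12_48_u, had no overlap of libraries but were not called (adjusted p = 0.0629 and 0.160). Snhg16, whose span holds Snord1a, Snord1b and Snord1c, differed from both: it had 59.5 and 61.2 TPM in div12 and 54.6 and 61.3 TPM in div0, against 78.0 and 75.5 TPM in naive. It fell by 0.34 ± 0.10 in div12 and by 0.40 ± 0.10 in div0 against naive (adjusted p = 0.0176 and 0.0114) and both calls were lost under median-ratio scaling and quantile normalization. The div12 call was also lost without naive replicate 1 or div12 replicate 1, and the div0 call without div0 replicate 1. These 3 are the listed and tested ones of 23 planned snoRNA host genes. Gas5, Zfas1, Dancr, Snhg3, Snhg5 and Snhg12 are not members and were not analysed here.

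**Figure D3:**
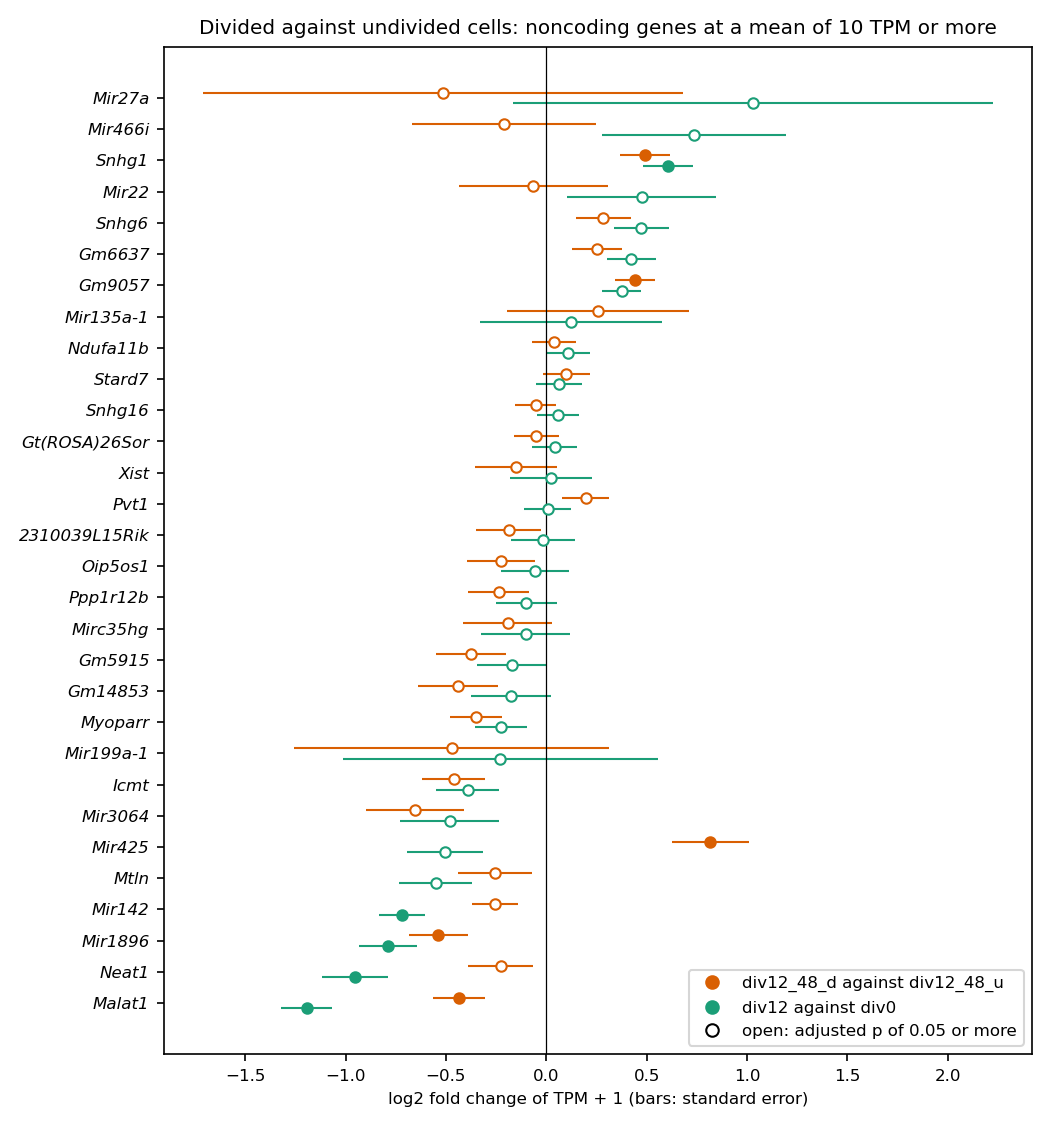
Log2 fold change of TPM + 1, with standard error bars, of 30 tested noncoding genes at a mean of 10 TPM or more, for div12_48_d against div12_48_u (orange, upper) and div12 against div0 (green, lower), with filled points for an adjusted p under 0.05. Malat1 and Mir1896 are lower and Snhg1 higher in divided cells in both phases, while Mir425 lies at 0.82 in Phase II and -0.50 in Phase I.

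The pseudogenes Gm6637, Gm9057 and Ndufa11b rose in div0 and in div12 against naive, while 3 other tested pseudogenes of 7 fell in each. Over all genes, 15.4% rose and 39.6% fell in div0, and 19.4% rose and 47.5% fell in div12. Gm6637 had 159.8 and 159 TPM in div12_48_d, 118 and 150.4 TPM in div12_48_u, 212 and 223 TPM in div12, 152 and 171 TPM in div0 and 110.3 and 99.0 TPM in naive. It rose by 0.62 ± 0.12 in div0 and by 1.05 ± 0.12 in div12 against naive (adjusted p = 0.00335 and 0.000138). Gm6637 fell by 0.70 ± 0.12 in div12_48_u and by 0.45 ± 0.12 in div12_48_d against div12 (adjusted p = 0.00275 and 0.0425). The last call was lost under 9 of 22 alternatives, among them without any 1 div12, div12_48_d or div0 library (adjusted p up to 0.193). Gm9057 had 296 and 283 TPM in div12_48_d, 225 and 201 TPM in div12_48_u, 288 and 273 TPM in div12, 205 and 228 TPM in div0 and 168 and 192 TPM in naive. It rose by 0.44 ± 0.10 in div12_48_d against div12_48_u (adjusted p = 0.0146), a call lost without div12_48_u replicate 2 or div12_48_d replicate 1 (adjusted p up to 0.0986), and by 0.64 ± 0.10 in div12 against naive (adjusted p = 0.000568). In div0 against naive its rise of 0.27 ± 0.10 (adjusted p = 0.0462) was lost under 13 of 21 alternatives, among them without any 1 library but naive replicate 2 (adjusted p up to 0.256). In div12_48_u against div12 it fell by 0.40 ± 0.10 (adjusted p = 0.0132). That call was lost without div12 replicate 1 or div12_48_u replicate 2 (adjusted p up to 0.0836). Ndufa11b rose by 0.36 ± 0.11 in div0 and by 0.47 ± 0.11 in div12 against naive (adjusted p = 0.0239 and 0.00547), with 293 and 318 TPM in div12 and 288 and 279 TPM in div0, against 238 and 204 TPM in naive. Its div0 call was lost without naive replicate 2 or either div0 library (adjusted p up to 0.118). Reads of a pseudogene can come from a near-identical coding copy, so these levels are uncertain as pseudogene levels.

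Mtln, annotated as coding for the mitochondrial micropeptide mitoregulin and once held to be noncoding, had 35.0 and 38.2 TPM in div12_48_d, 44.3 and 43.5 TPM in div12_48_u, 23.4 and 29.8 TPM in div12, 39.5 and 38.8 TPM in div0 and 16.1 and 23.7 TPM in naive. It rose by 0.97 ± 0.18 in div0 against naive (adjusted p = 0.00285) and by 0.71 ± 0.18 in div12_48_u against div12 (adjusted p = 0.0149). This last call was lost under quantile normalization, without div12 replicate 1 and without either div12_48_u library (adjusted p up to 0.0883). The division differences were not called (-0.55 ± 0.18 in Phase I and -0.26 ± 0.18 in Phase II, adjusted p = 0.0953 and 0.341).

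Pvt1, the long noncoding gene beside Myc, rose in Phase II whether or not cells divided again. It had 26.9 and 24.8 TPM in div12_48_d, 23.3 and 21.5 TPM in div12_48_u, 15.5 and 14.8 TPM in div12, 15.3 and 14.7 TPM in div0 and 12.7 and 13.1 TPM in naive. It rose by 0.73 ± 0.12 in div12_48_d and by 0.54 ± 0.12 in div12_48_u against div12 (adjusted p = 0.00515 and 0.00724). The rise in div12_48_d was lost when the most abundant transcript stood for the gene (adjusted p = 0.267), and that in div12_48_u under quantile normalization (0.0982). Against naive it differed by 0.21 ± 0.12 in both div0 and div12 (adjusted p = 0.167 and 0.139), which both scaling alternatives turned into calls.

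Xist, which silences one X chromosome in female cells, had 699 and 832 TPM in div12_48_d, 916 and 783 TPM in div12_48_u, 751 and 519 TPM in div12, 539.7 and 697 TPM in div0 and 427 and 535 TPM in naive. Both naive libraries lay below both div0 libraries and both div12 libraries below both div12_48_u libraries, while naive overlapped div12, and limma called Xist in none of the 7 comparisons, with fold changes from -0.18 ± 0.29 to 0.44 ± 0.20 and adjusted p from 0.118 upward. Median-ratio scaling called it higher than naive in div0 (0.59) and in div12 (0.72). Its antisense partner Tsix lay between 0.0609 and 0.218 TPM in every library, and reads of the shared span may be assigned to either without strand. Oip5os1 (Cyrano), known for the turnover of miR-7, was not called in any of the 7 comparisons either, with 201 and 186 TPM in div12_48_d, 244 and 209 TPM in div12_48_u, 206 and 203 TPM in div12, 212 and 213 TPM in div0 and 151 and 227 TPM in naive. Meg3, an imprinted gene, stayed at or under 0.872 TPM and Miat at or under 0.118 TPM in every library, and neither passed the filter.

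Structural and catalytic RNAs were near the low end. Terc, the template RNA of telomerase, had 4.51 and 2.19 TPM in div12_48_d, 3.04 and 4.41 TPM in div12_48_u, 3.83 and 3.85 TPM in div12, 4.16 and 6.34 TPM in div0 and 6.56 and 6.75 TPM in naive, with no call (-0.66 ± 0.29 in div12 against naive, adjusted p = 0.0707). Rprl3 had 5.61 and 8.63 TPM in div12, against 0 and 2.47 TPM in naive, and rose by 2.10 ± 0.58 (adjusted p = 0.0121), a call lost without naive replicate 1 or div12 replicate 2. Rmrp was listed at 0 in both div12_48_u libraries and had 1.29 and 2.91 TPM in div12_48_d and 1.09 and 4.81 TPM in div12, with no call (adjusted p = 0.106 for div12_48_d against div12_48_u). Rprl3 and Rmrp were chosen for mention by their role, and the first after its values were seen.

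Mir3064 was the most abundant small RNA gene, and its hairpin, shown above, lies in an exon of a GENCODE transcript of Ddx5, an RNA helicase gene, on the same strand. It had 1155 and 856 TPM in div12_48_d, 1744 and 1405 TPM in div12_48_u, 1025 and 1009 TPM in div12, 1216 and 1656 TPM in div0 and 3607 and 2242 TPM in naive. Ddx5 had 2152 and 2286 TPM in div12_48_d, 3190.3 and 3287 TPM in div12_48_u, 1800.3 and 1921 TPM in div12, 2612 and 2319.7 TPM in div0 and 4183 and 3978 TPM in naive. Both were highest in naive and higher in div12_48_u than in either group of divided cells. Mir3064 fell by 1.00 ± 0.25 in div0 and by 1.48 ± 0.25 in div12 against naive (adjusted p = 0.00910 and 0.000862), and Ddx5 fell by 0.73 ± 0.08 and by 1.13 ± 0.08 (adjusted p = 0.000248 and 1.46e-05). The div0 call of Mir3064 was lost with the compared groups fitted alone, without naive replicate 1 and without div0 replicate 1 (adjusted p up to 0.0682). Since hairpin and exon overlap, the reads of 1 cannot be told from those of the other, and the level of Mir3064 was not read as a microRNA level.

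**Figure D4:**
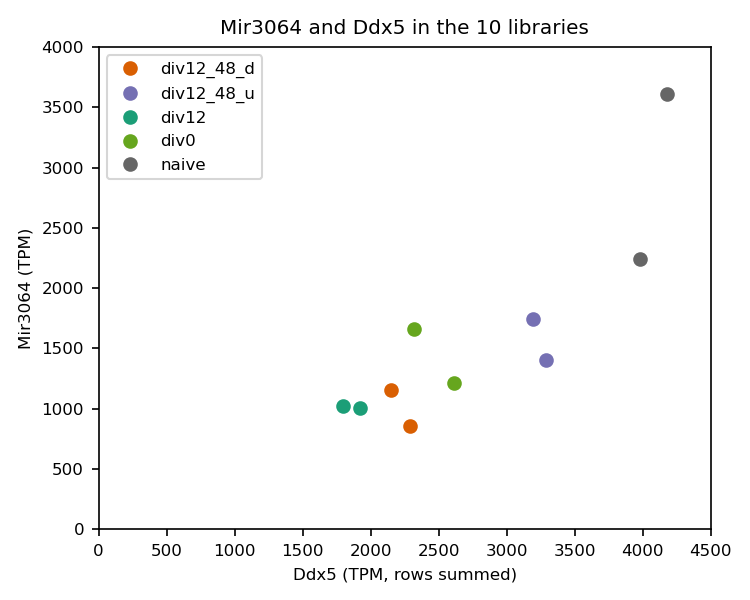
Level of Mir3064 (vertical axis, TPM) against that of Ddx5 (horizontal axis, TPM, transcripts summed) in each of the 10 libraries, coloured by group. The naive libraries are highest on both axes (3607 and 2242 TPM for Mir3064), and the div12 libraries are lowest for Ddx5.

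Mir142, a microRNA gene of blood cells that GENCODE places in an intron of Mir142hg, had 449 and 425 TPM in div12_48_d, 474 and 573 TPM in div12_48_u, 234 and 269 TPM in div12, 421 and 405 TPM in div0 and 269 and 237 TPM in naive. The div12 and naive libraries overlapped and lay below every other library. It rose by 0.71 ± 0.11 in div0 against naive (adjusted p = 0.00138), fell by 0.72 ± 0.11 in div12 against div0 (adjusted p = 0.0158), and rose by 1.05 ± 0.11 in div12_48_u and by 0.80 ± 0.11 in div12_48_d against div12 (adjusted p = 0.000378 and 0.00335). The call between div12 and div0 was lost without any 1 of its 4 libraries (adjusted p up to 0.171). Between div12_48_d and div12_48_u the difference was -0.25 ± 0.11 (adjusted p = 0.143).

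Mir1896 was lower in divided cells in both phases. It had 142 and 166 TPM in div12_48_d, 224 and 224 TPM in div12_48_u, 71.9 and 96.5 TPM in div12, 134 and 156 TPM in div0 and 168 and 180.0 TPM in naive. It fell by 0.79 ± 0.15 in div12 against div0 (adjusted p = 0.0221), by 0.54 ± 0.15 in div12_48_d against div12_48_u (adjusted p = 0.0300) and by 1.05 ± 0.15 in div12 against naive (adjusted p = 0.000336). Against its level in div12 it rose by 1.41 ± 0.15 in div12_48_u and by 0.88 ± 0.15 in div12_48_d (adjusted p = 0.000324 and 0.00634). The Phase I division call was lost under 5 of 21 alternatives, each of its 4 libraries left out among them, and the Phase II call under 4 of 21, median-ratio scaling among them (adjusted p = 0.0688) and without div12_48_d replicate 1 or either div12_48_u library (up to 0.190). The rise in div12_48_d against div12 was lost without div12_48_d replicate 2 and with the compared groups alone (up to 0.0614). GENCODE places this hairpin in an exon of the long noncoding gene 4930470G03Rik and, on the opposite strand, in an exon of Zscan26.

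Mir425 was the hairpin with the largest rise in div0 against naive. It had 107 and 87.6 TPM in div12_48_d, 60.9 and 49.1 TPM in div12_48_u, 54.8 and 48.2 TPM in div12, 87.9 and 61.2 TPM in div0 and 6.26 and 6.44 TPM in naive, the naive values being near the lowest step of a hairpin in those libraries. It rose by 3.34 ± 0.19 in div0 and by 2.83 ± 0.19 in div12 against naive (adjusted p = 1.19e-05 and 8.96e-06), by 0.82 ± 0.19 in div12_48_d against div12_48_u (adjusted p = 0.0171) and by 0.90 ± 0.19 in div12_48_d against div12 (adjusted p = 0.0161). The Phase II division call was lost without div12_48_d replicate 1 (adjusted p = 0.133) and without div12_48_u replicate 2 (0.0964), in a range from 0.00798. The rise in div12_48_d against div12 was lost without div12 replicate 2 or either div12_48_d library (adjusted p up to 0.102). Its neighbour Mir191, in the same GENCODE gene, 4833445I07Rik, was above 0 in 2 libraries only (5.38 TPM in div12_48_d and 3.55 TPM in div12).

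**Figure D5:**
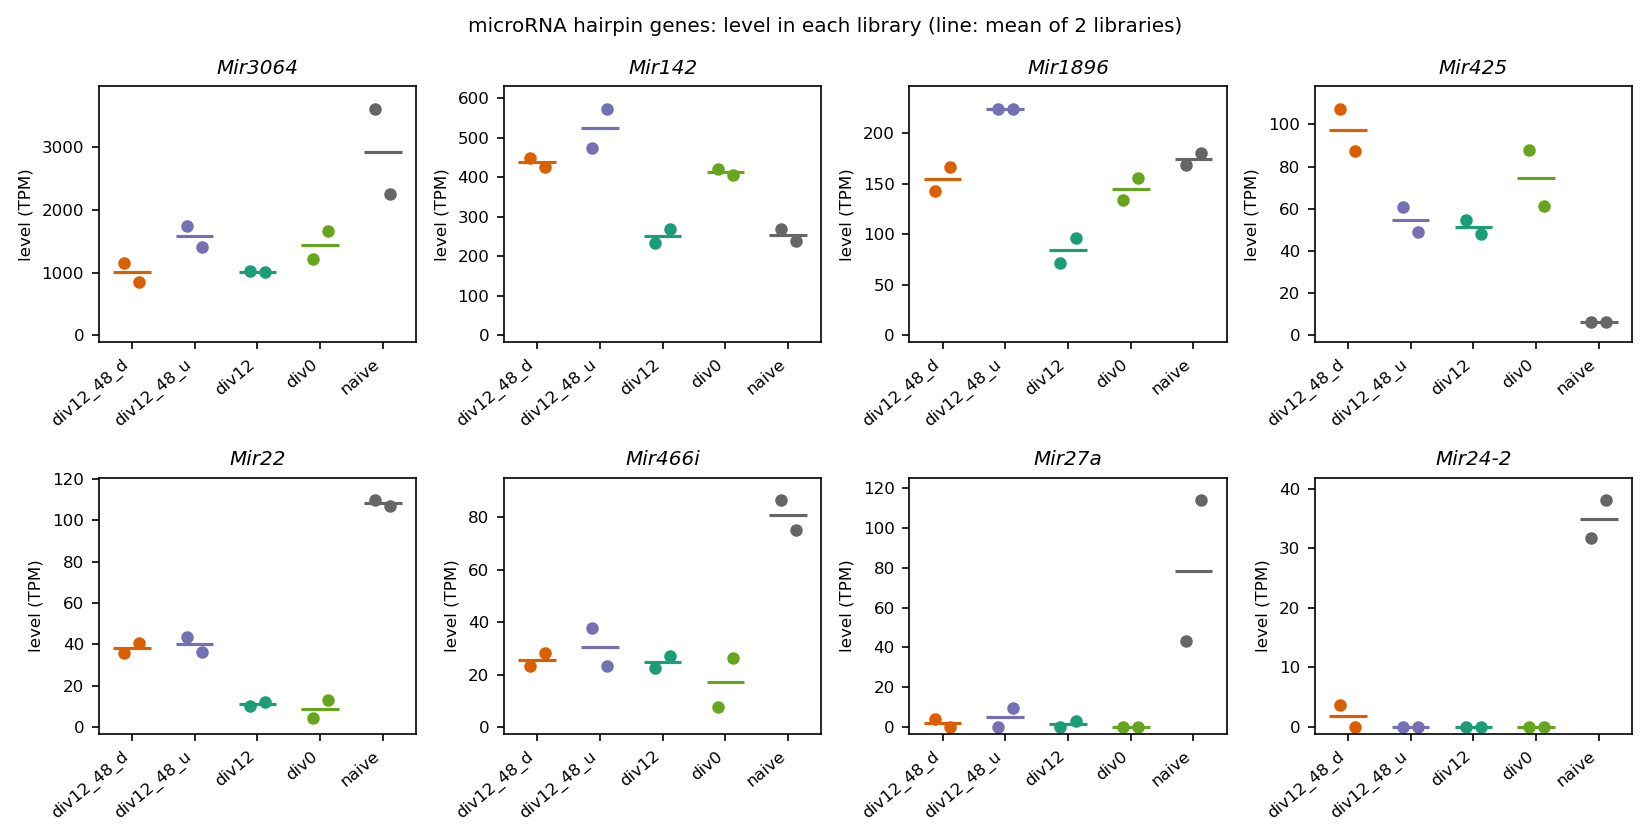
Level in TPM of 8 microRNA hairpin genes in each of the 10 libraries, by group, with a line at the mean of the 2 libraries. Mir425 is lowest in naive (6.26 and 6.44 TPM), Mir22, Mir466i, Mir27a and Mir24-2 are highest there, and Mir1896 and Mir142 are lower in div12 than in div0.

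Mir22 and Mir466i fell in div0 and in div12 against naive. GENCODE places Mir22 in an exon of Mir22hg and, on the same strand, in an exon of the coding gene Tlcd2. Mir22 had 35.7 and 40.4 TPM in div12_48_d and 43.7 and 36.2 TPM in div12_48_u. It had 10.1 and 11.9 TPM in div12, 4.27 and 13.0 TPM in div0 and 109.7 and 107 TPM in naive. It fell by 3.67 ± 0.37 in div0 and by 3.19 ± 0.37 in div12 against naive (adjusted p = 0.000136 and 0.000135). Mir22 rose by 1.77 ± 0.37 in div12_48_u and by 1.71 ± 0.37 in div12_48_d against div12 (adjusted p = 0.00618 and 0.0183), where it remained below naive. The rise in div12_48_d was lost without any 1 of its 4 libraries (adjusted p up to 0.121). Mir466i, whose mature strand above is largely a run of ca repeats, had 22.5 and 27.2 TPM in div12 and 7.71 and 26.4 TPM in div0, against 86.5 and 75.3 TPM in naive. It fell by 1.67 ± 0.46 in div12 and by 2.40 ± 0.46 in div0 (adjusted p = 0.0115 and 0.00294). The div12 call was lost without naive replicate 1 or div12 replicate 1 (adjusted p up to 0.0613). Whether reads of other ca repeats of the genome count toward it was not tested.

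Some lower hairpins, picked for their values, had their highest level in naive cells, and others did not. Mir135a-1 lay between 13.0 and 67.9 TPM and Mir199a-1 between 4.95 and 50.4 TPM over the 10 libraries, and Mirlet7d had 11.8 and 12.8 TPM in div12_48_u, against 5.44 and 5.59 TPM in naive, all 3 with no call. Mir27a had 43.1 and 114 TPM and Mir24-2 had 31.7 and 38.1 TPM in naive, 2 hairpins of 1 cluster on chromosome 8 that GENCODE places in no host gene. Both were listed at 0 in both div0 libraries, Mir24-2 also in both div12 and both div12_48_u libraries, and elsewhere Mir27a stood between 0 and 9.65 TPM and Mir24-2 between 0 and 3.63 TPM. Against naive, limma called Mir27a lower in div0 (adjusted p = 0.00315) and in div12 (adjusted p = 0.00507). Mir24-2 passed the filter only through its naive libraries, which set its direction against naive, so no test of it is given. Mir212 had 29.8 and 6.13 TPM in naive, and Mir132, whose mature strand shares its seed, had 30.1 and 0 TPM. Outside naive Mir132 was listed at 0 in every library and Mir212 in all but 1 (4.67 TPM, div12_48_u). Of the Mir17hg cluster, Mir18 was listed at 0 in both div0 libraries and had 3.35 and 5.88 TPM in div12, against 17.2 and 17.7 TPM in naive (adjusted p = 0.00363 for div0). Mir92-1 had 13.1 and 20.2 TPM in naive and between 0 and 9.84 TPM elsewhere, with no call. Mir664 was the reverse case, with 12.8 and 3.74 TPM in div12 and 0 in the 8 other libraries. Mir135a-1, Mir199a-1, Mirlet7d, Mir212, Mir132, Mir18, Mir92-1 and Mir664 were chosen after their values were seen.

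The summed levels of markers of other cells were highest in the naive libraries, though single markers differed. The summed level of 13 listed myeloid markers of 15 planned was 104 to 110.2 TPM in div12 and 88.3 to 176 TPM in div0, against 827 to 2572 TPM in naive, with C1qa listed at 0 in all 8 cultured libraries. For 5 of 10 erythroid markers it was 25.5 to 27.3 TPM in div12 and 13.3 to 13.9 TPM in div0, against 2680.0 to 3201 TPM in naive. For 5 of 9 NK cell markers it was 3.86 to 5.30 TPM in div12 and 5.79 to 6.47 TPM in div0, against 105 to 152 TPM in naive, and for 8 of 11 T cell markers 267 to 268 TPM in div12 and 276 to 297 TPM in div0, against 915 to 1015 TPM in naive, of which Cd2 was 836 and 721 TPM and Cd3e 10.3 and 10.2 TPM. For 4 of 6 platelet markers it was 35.2 to 37.2 TPM in div12 and 48.6 to 53.9 TPM in div0, against 66.7 to 72.5 TPM in naive, although Itgb3 was 48.0 and 44.4 TPM in div0, against 41.0 and 46.2 TPM in naive. In Phase II, the myeloid sum was 232 to 303 TPM in div12_48_d and 172 to 177 TPM in div12_48_u, most of it Adgre1 (139 and 204 TPM in div12_48_d, 108 and 103 TPM in div12_48_u, against 23.4 and 65.6 TPM in naive) and Cd68, the T cell sum was 577 to 714 TPM in div12_48_d and 508 to 618 TPM in div12_48_u, most of it Lck (422 and 445 TPM in div12_48_d and 346 and 401 TPM in div12_48_u, against 125 and 133 TPM in naive), with Cd3e at or under 0.345 TPM, and the erythroid sum was at most 46.2 TPM. The sum of 8 of 10 B cell markers was 36516 to 40806 TPM in div12 and 53475 to 55771 TPM in div0, against 66434 to 70496 TPM in naive. Of these, 7 of 8 were called lower in div12 against naive, beside 47.5% of all genes. In Phase II the B cell sum was 38363 to 43233 TPM in div12_48_d and 55940 to 59201 TPM in div12_48_u. The part of other cells in the falls of Mir27a, Mir24-2, Mir22, Mir466i, Mir212 or Lncpint against naive was not tested.

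The proteins that make or use these RNAs were read from lists chosen with earlier results of these data known. The calls of their genes, here and in the next paragraph, come from the main fit alone. Unlike those of the noncoding genes, they were not followed under the alternatives. Of 17 planned microRNA pathway genes 7 are listed and 5 were tested, and 3 of 5, Ago2, Dicer1 and Tnrc6a, fell in div0 and in div12 against naive, where 39.6% and 47.5% of all genes fell. The list medians were -0.38 and -0.65, beside -0.24 and -0.35 over all genes, a general shift whose size depends on the scaling. Ago2, the slicing Argonaute, fell by 0.59 ± 0.17 in div0 and by 1.26 ± 0.17 in div12 against naive (adjusted p = 0.0197 and 0.000315), by 0.67 ± 0.17 in div12 against div0 (adjusted p = 0.0493) and by 0.86 ± 0.17 in div12_48_d against div12_48_u (adjusted p = 0.00967). Tnrc6a, a partner of Argonaute, fell by 0.35 ± 0.09 in div12_48_d against div12_48_u (adjusted p = 0.0247). Against div12 all 3 rose in div12_48_u, by 1.00 ± 0.17, 0.50 ± 0.12 and 0.67 ± 0.09 for Ago2, Dicer1 and Tnrc6a.

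Of 40 planned partner proteins of small nucleolar and spliceosomal RNAs, 12 were tested. In div12 against naive, 7 of 12 rose and 1 fell, beside 19.4% and 47.5% of all genes (median 0.28, beside -0.35 over all genes). In div12_48_d against div12_48_u, 3 rose, beside 12.2% of all genes (median 0.23, beside -0.08), and in div12_48_u against div12, 7 fell, beside 13.6% of all genes (median -0.30, beside 0.16). Nop58, a core protein of box C/D particles, rose by 0.60 ± 0.10 in div12 against naive (adjusted p = 0.00102) and by 0.48 ± 0.10 in div12_48_d against div12_48_u (adjusted p = 0.0118), and fell by 0.58 ± 0.10 in div12_48_u against div12 (adjusted p = 0.00275). Ruvbl2, an ATPase of their assembly, rose by 0.46 ± 0.13 and 0.48 ± 0.13 in these first comparisons and fell by 0.56 ± 0.13 in div12_48_u against div12. In div12 against div0, 0 of the 12 were called by limma and 3 had an unadjusted p under 0.05. Among 24 planned proteins of 7SK, 7SL, RNase P and RNase MRP, 10 were tested, of which 4 rose and 1 fell in div0 (15.4% and 39.6% of all genes) and 5 rose and 2 fell in div12 (19.4% and 47.5% of all genes) against naive. Rpp30, an RNase P protein, rose by 0.72 ± 0.11 in div12 against naive (adjusted p = 0.000623) and fell by 0.74 ± 0.11 in div12_48_u against div12 (adjusted p = 0.00145). Of 25 planned genes of nonsense-mediated decay and RNA turnover 3 were tested, of which Exosc8, an exosome subunit, rose in div12_48_d against div12_48_u by 0.42 ± 0.11 (adjusted p = 0.0257).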

How the data were processed

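The authors deposited 1 table of TPM values per transcript for 10 libraries of 5 groups, each summing to 1000000 TPM over 13128 transcripts. Per the labels' protocols, rRNA was depleted from 100 ng of total RNA and reads were 50 bases, single-end. The build was mm10, per the submitters' processing notes, which list DESeq2, HTSeq, featureCounts, Salmon and HISAT2. The role and version of each, and whether counting used strand, were not given in the sources used here. No counts were used, so depth is unknown and no counting interval or floor is given.

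Transcripts were summed by gene. log2(TPM + 1) of the 4427 genes that reached 1 TPM in 2 or more libraries was fitted with limma 3.58.1 (R 4.3.3). The fit was on group alone over all 10 libraries, with a trended prior, 5 residual degrees of freedom and Benjamini-Hochberg adjustment at 0.05. It was also run on simulated data with the same spread in every group and changes in div12_48_d alone. That run therefore does not bear on the calls against naive. With 2 libraries a side an exact permutation test cannot go below p = 0.333, so every p rests on spread pooled by limma. The fit takes that spread as equal in all groups, but it was widest in naive. Over genes, the SD of the log2 difference between the 2 replicates was 0.553 in naive and 0.258 to 0.333 in the other groups. Tables used Python 3.11.15 and pandas 2.3.3.

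The members and lists were chosen with earlier results of these data known. Genes were named from a set list, as the 5 most abundant long and small genes, and as the called genes of largest change with a mean of at least 10 TPM. Others (Myoparr, Lncpint, Snhg16, Gm14853, Oip5os1, Rprl3, Mir3064's host, Mir466i, Mir155, Mir150, Mir191 and the low hairpins) were chosen after their values were seen. Alternatives covered pseudocount, filter, scaling, transcript choice, model and each library left out.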

Additional observations from a re-analysis of the deposited data

Results flagged for a closer look

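Lncpint stood out because its libraries moved in opposite directions with division in the 2 phases: both div12 libraries lay above both div0 libraries, and both div12_48_d libraries below both div12_48_u libraries. The division effect in Phase II minus that in Phase I was -1.04 ± 0.51 on the log2 scale and did not pass limma's test (adjusted p = 0.563). The Phase I values are at or under 0.211 TPM.

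Mir425 did the opposite, with both div12 libraries below both div0 libraries and both div12_48_d libraries above both div12_48_u libraries. The difference of its division effects was 1.32 ± 0.27 (limma, unadjusted p = 0.00105, adjusted p = 0.113).

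Outside the genes with a symbol, the table holds 44 noncoding rows without one, of which 9 were above 0. One of them, which RefSeq names A530040E14Rik (a long noncoding gene), averaged 1199.5 TPM in div12_48_d, with 1113 and 1286 TPM there, 947 and 963 TPM in div12_48_u, 753 and 824 TPM in div12, 674 and 634.7 TPM in div0 and 1019 and 522 TPM in naive. Its level in div12_48_d was above every library of the other groups.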

How the results depend on the processing

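Of 103 calls of single genes in a comparison, 48 held under every alternative run and 62 under every one that left out no library. Both counts include calls of Mir24-2 and Mir212 against naive and of Mir664 with div12, whose direction was set by the filter. Counts of noncoding genes called fell when small RNA genes were left out and the rest rescaled, which removes members: 19 in div0 against naive, 3 in div12 against div0, 3 in div12_48_d against div12_48_u and 6 in div12_48_d against div12. For div12_48_d against div12_48_u, median-ratio scaling gave 3 calls and leaving out the naive group, chosen after seeing the data, gave 9, beside 1161 and 1428 over all genes. Leaving out 1 library changed the number of calls over all genes as well as among the noncoding genes. In div12 against div0 both numbers fell without any 1 of the libraries compared. Both also fell in div12_48_d against div12_48_u without div12_48_d replicate 1. The loss of a single call under such a fit is therefore not particular to noncoding genes. Restricting to genes that RefSeq calls noncoding, also chosen later, gave 21 and 26 calls for div0 and div12 set against naive, 6 and 4 for the divisions of Phase I and Phase II, 13 and 9 for div12_48_u and div12_48_d set against div12, and 0 for the difference. A replicate block gave 29, 34, 6, 4, 17, 10 and 0 in that order. Deviations of same-numbered libraries correlated at -0.238 to 0.199, the highest between div12_48_u and div12_48_d, which come from the same culture. With 1 deviation per group these values cannot exclude that the numbers pair the samples. Directions reversed under quantile normalization for Casz1 (0.12 in div12 against naive), Fendrr (0.13 in div0 and 0.11 in div12 against naive), Gm5115 (0.032 in div0 against naive) and Lncbate10 (0.18 in div12 against naive), and with the most abundant transcript for Gt(ROSA)26Sor (0.0224 in div0 and 0.0849 in div12 against naive). The cause was not tested. With 2 libraries a group and unknown depth, small differences and short hairpins near their lowest step are poorly resolved.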

Other observations

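Rows without a symbol that RefSeq names as the microRNA hairpins Gm51275, Mir12188 and Mir12193 also reached 10 TPM in at least 1 library. Gm51275 had 1296 and 1199 TPM in div12_48_d, 2000.5 and 1650.4 TPM in div12_48_u, 1131 and 1016 TPM in div12, 1362 and 1248 TPM in div0 and 2192 and 2243 TPM in naive, so it was highest in naive and lowest in div12. Mir12188 lay between 38.2 and 181 TPM, with the widest gap between the 2 div12_48_u libraries (181 and 47.2 TPM). They were not fitted with the other genes, and no test is given.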
